A study of Drosophila melanogaster with 3 samples.

Results

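Of the 30000 peaks called on the pooled SREBP ChIP-seq libraries of whole Drosophila melanogaster larvae, 726 (2.42%) had a summit at the start of a non-coding RNA gene. A peak was counted when its summit lay within 500 bp of a transcription start site (TSS) of a gene with the Ensembl biotype ncRNA and more than 500 bp from every protein-coding TSS. For comparison, 7915 pooled peaks lay at protein-coding starts and 21359 lay elsewhere. The 7915 include 332 peaks that also lay within 500 bp of an ncRNA start. The ncRNA biotype is wider than long RNAs. By symbol, 599 of the 726 peaks lay at an lncRNA gene, 70 at an antisense RNA gene, 13 at another ncRNA and 44 only at a microRNA (miRNA) hairpin or mature miRNA entry, so the name long non-coding RNA does not hold for those 44.

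All 3 samples are biological replicates of a single group, and no groups of larvae were compared. Chromatin came from wandering larvae of the last larval instar, with males and females pooled and age not known, from a transgenic line that stably expressed SREBP with GFP at its N terminus. The precipitation used an anti-GFP antibody, although the antibody field of the labels names HLH106, another name of SREBP. Whole animals were used, so all tissues are mixed in each value, and a site used in few cells cannot be told apart from a weak site used in many.

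SREBP is a membrane-bound transcription factor of the basic helix-loop-helix family. Its N-terminal part is cut free, enters the nucleus and acts on genes of fatty acid and phospholipid synthesis in flies, and vertebrate family members bind both sterol response elements and E-boxes. Long non-coding RNAs are transcribed and often spliced like messenger RNAs but encode no known protein, and some serve as precursors from which miRNAs or small nucleolar RNAs (snoRNAs) are cut.

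The windows below show the 101 bp around single summits on dm6, each in the direction of its RNA, read from the RefSeq genome of that build. Capitals mark matches, on either strand, to 1 of 4 motifs. They are the GATA factor motif, searched as AGATAA and also as TGATAA, the forkhead motif, searched as TGTTTAC and also as TATTTAC, the palindromic E-box CACGTG, and the sterol element TCACNCCAC. The first is the strongest of the 726 peaks and holds none of these. The next 3 are strong peaks inside protein-coding genes, at chr3R:17700538-17700638 (plus strand), chr3R:25738134-25738234 (plus strand) and chr3R:9393838-9393938 (plus strand). The last pair, at chr2L:20647461-20647561 (plus strand) and chr3L:11274890-11274990 (minus strand), shows a weak peak with the palindromic E-box and the single peak with the sterol element. The first window is chr3R:29214395-29214495 (plus strand).
lncRNA:CR31044: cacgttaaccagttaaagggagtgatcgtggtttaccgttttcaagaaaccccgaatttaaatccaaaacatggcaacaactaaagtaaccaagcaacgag
lncRNA:CR46036: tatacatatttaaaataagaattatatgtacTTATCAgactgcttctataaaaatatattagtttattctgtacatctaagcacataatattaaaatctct
lncRNA:CR46102: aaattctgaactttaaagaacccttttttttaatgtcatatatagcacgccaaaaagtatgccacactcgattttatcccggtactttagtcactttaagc
asRNA:CR46145: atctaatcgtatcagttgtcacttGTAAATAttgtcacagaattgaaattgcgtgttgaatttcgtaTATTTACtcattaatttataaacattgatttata
Uhg3: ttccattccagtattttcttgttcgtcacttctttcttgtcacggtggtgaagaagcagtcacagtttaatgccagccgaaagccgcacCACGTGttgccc
lncRNA:CR44720: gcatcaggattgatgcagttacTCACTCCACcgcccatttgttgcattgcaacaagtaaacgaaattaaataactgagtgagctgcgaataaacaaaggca

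The authors chose part of the pooled peaks as the optimal set by the irreproducible discovery rate (IDR). These were exactly the pooled peaks with the highest deposited signal, so membership says how strong a pooled peak was. In each replicate list, the same number of peaks with the highest signal is called the strongest set here. The signal value is the peak caller's own and has no stated scale, so peaks are compared by rank within a list, with rank 1 the strongest. Of the 726 peaks at ncRNA starts, 200 (27.5%, 24.4 to 30.9) were in the optimal set and 526 were not. The share over all pooled peaks was 26.6%. It was 41.9% at protein-coding starts and 21.0% elsewhere. Peaks at ncRNA starts thus had about the strength of an average pooled peak and were weaker than peaks at protein-coding starts. Their median rank was 14797, against 9805 at protein-coding starts and 16915 elsewhere. Intervals are 95% Wilson intervals, which cover counting error over peaks and not the spread between larvae. The lists give no read counts, so depth is unknown.

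The same rule applied to each replicate's own list of 30000 peaks found 714, 738 and 708 peaks at ncRNA starts in replicates 1, 2 and 3. Among them, 27.9%, 26.3% and 27.4% belonged to the strongest set of that list, a mean of 27.2% ± 0.813 (SD, n = 3). At protein-coding starts the shares were 45.6%, 37.4% and 42.0%, and elsewhere 20.4%, 21.8% and 20.8%. The share at ncRNA starts lay below that at protein-coding starts in 3 of 3 replicates, by a mean of -14.5 percentage points (SD 3.35), and above that elsewhere in 3 of 3, by a mean of 6.19 percentage points (SD 1.5). An exact sign-flip permutation test over 3 replicates cannot go below p = 0.25 two-sided, and each of the 12 differences computed in this way stood at that value. The 3 lists come from the same line and stage, and their values bear on spread between these samples only.

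**Figure D1:**
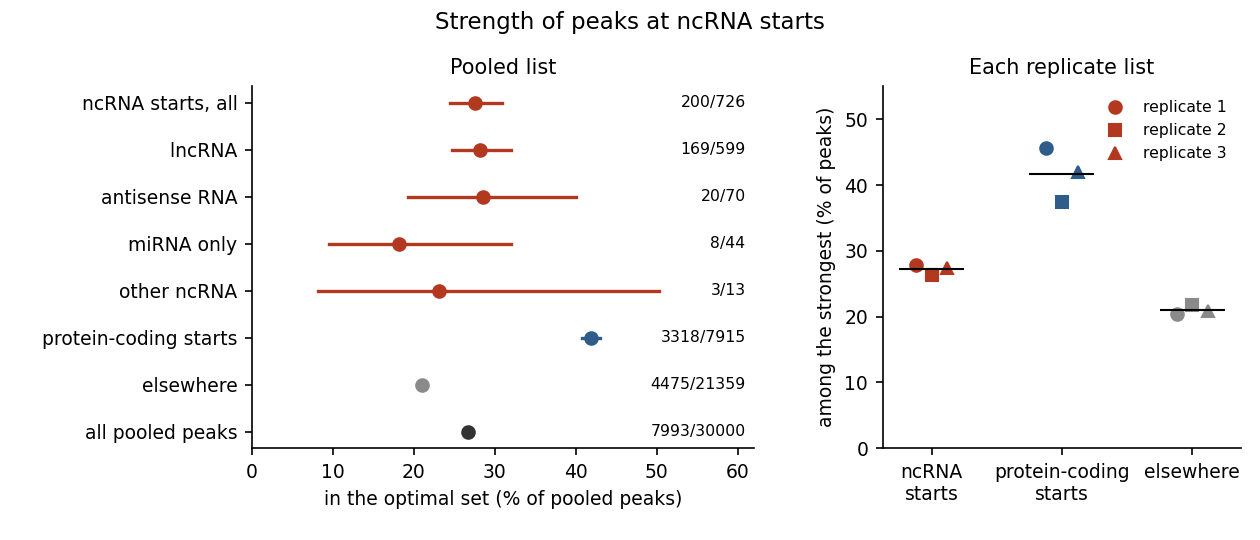
Left, the share of pooled peaks in the optimal set (%) with its 95% Wilson interval, for the 726 peaks at ncRNA starts, their classes by symbol, and the other pooled peaks, with counts at the right. Right, the share of each replicate's own peaks that belong to its strongest set (%), with 1 symbol per replicate and a line at the mean; ncRNA starts at 26.3% to 27.9% lie between protein-coding starts and peaks elsewhere in every replicate.

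Most of the peaks at ncRNA starts had a counterpart in the replicate lists, but fewer than 1 in 2 had one in all of them. A summit within 150 bp was found for 69.1%, 69.7% and 72.0% of the 726 in replicates 1, 2 and 3. All 3 lists held 309 of them (42.6%, 39.0 to 46.2), against 41.5% of all pooled peaks. Exactly 2 lists held 222, 1 list held 160 and no list held 35. At protein-coding starts 52.2% were in all 3 lists, and elsewhere 37.5%. Of the 200 optimal peaks at ncRNA starts, 187 (93.5%) were in all 3, against 92.1% of all optimal peaks. Of the 526 others, 122 (23.2%) were. Outside the optimal set the share was 25.4% at protein-coding starts and 22.5% elsewhere. With the limit to the strongest set of each replicate, 147 (20.2%) were in all 3, against 19.2% of all pooled peaks. Optimal membership was itself chosen for agreement between replicates, so its overlap with them is a description only. Among peaks at ncRNA starts found in both lists, Spearman correlations of the signal were 0.863 (360 peaks, replicates 1 and 2), 0.870 (392, replicates 1 and 3) and 0.875 (397, replicates 2 and 3), with peaks as the points.

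The classes of RNA did not differ clearly in their share of optimal peaks. In the optimal set were 169 of the 599 peaks at lncRNA genes (28.2%, 24.8 to 31.9), 20 of the 70 at antisense RNA genes (28.6%, 19.3 to 40.1), 8 of the 44 at miRNAs only (18.2%, 9.51 to 32.0) and 3 of the 13 at other ncRNAs (23.1%, 8.18 to 50.3). These intervals overlap throughout. Matches in all 3 replicate lists were fewer at miRNAs only, with 10 of 44 (22.7%, 12.8 to 37.0), than at lncRNA genes, with 267 of 599 (44.6%, 40.6 to 48.6). At antisense RNA genes the share was 40.0% (29.3 to 51.7) and at other ncRNAs 30.8% (12.7 to 57.6). The plot of strength shows the small classes with the widest intervals.

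The strongest peak lay at lncRNA:CR31044 (FBgn0051044), the primary transcript of mir-279 and mir-996. The peak ran from 29214190 to 29214670 on 3R, with its summit at 29214445, 117 bp upstream of the TSS and 5727 bp from the nearest protein-coding start, that of eEF1gamma, a translation elongation factor gene. Its pooled signal was 9335 and its pooled rank 18, and it ranked 23, 13 and 17 in replicates 1, 2 and 3, a mean of 17.7 ± 5.03 (SD, n = 3). No protein-coding gene covered it. The mature products of the 3′ arms of both hairpins are shown because they share a seed (bases 2 to 8, in capitals), which is GACUAGA in both, at chr3R:29215651-29215672 and chr3R:29217244-29217265 on the plus strand. In flies mir-279 is known for restricting the formation of carbon dioxide-sensing neurons.
mir-279: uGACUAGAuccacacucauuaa
mir-996: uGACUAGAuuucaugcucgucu

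The transcript start carried by far the most signal of this locus. A summit 729 bp into the gene had a pooled signal of 203, rank 7491, and lay 294 bp upstream of the mir-279 hairpin entry. It ranked 10368, 6787 and 7693 in replicates 1, 2 and 3. The summit at 929 bp had a signal of 112 and rank 12063, and was matched to the same peak in replicate 1. Those at 2341 and 2578 bp, upstream of mir-996, had signals of 62.5 and 39.1. The former was matched in replicate 2 only and the latter in replicate 1 only. These 4 also met the rule, as miRNA starts, and only the first of them was in the optimal set. The start of eEF1gamma carried a peak of signal 1467, rank 938. These hairpins are cut from the RNA that begins at the lncRNA start, so the miRNA entries of this locus mark hairpins and not starts of transcription.

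**Figure D2:**
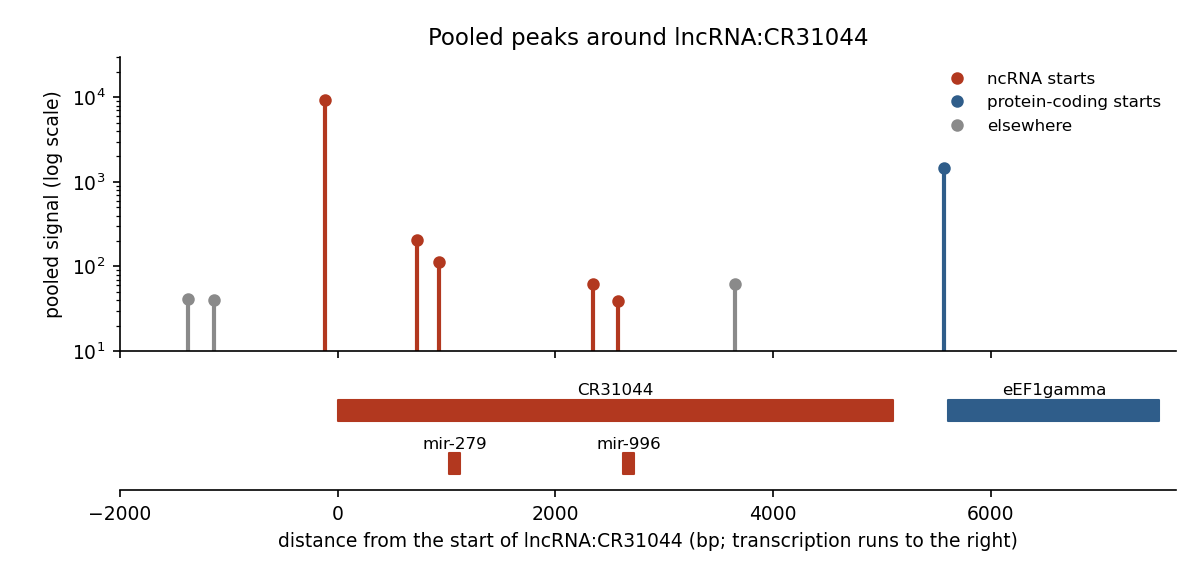
Pooled signal (log scale) of each peak summit by distance in bp from the start of lncRNA:CR31044, with the genes drawn below. Colours give the class of each peak by the 500 bp limits, which is ncRNA start, protein-coding start or elsewhere. The peak at -117 bp, with a signal of 9335, stands above the summits at the mir-279 and mir-996 hairpins, whose signals run from 39.1 to 203.

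The next strongest peak, at rank 57, lay 153 bp upstream of lncRNA:CR46036 (FBgn0267703) on 3R with its summit at 17700588, in an intron of osa, which encodes a subunit of the Brahma chromatin remodelling complex and runs on the opposite strand. It ranked 58, 39 and 76 in replicates 1, 2 and 3. The peak at rank 66, of lncRNA:CR44676 (FBgn0265887), had its summit at 19560821 on 3L, 369 bp downstream of the TSS and between protein-coding genes. It ranked 63, 56 and 77 in the replicates. The replicates put both among their 100 strongest of 30000 peaks. Both were picked from a list called on these replicates pooled, so this is a description only.

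The peak at rank 99 belonged to lncRNA:CR46102 (FBgn0267771), which starts in an intron of LpR2 on the other strand. LpR2 encodes a lipophorin receptor, which takes up lipid from the circulating lipoprotein of the fly. The summit stood at 25738184 on 3R, 157 bp downstream of the RNA's TSS and 2281 bp from the nearest start of LpR2, and ranked 102, 91 and 106 in replicates 1, 2 and 3. The peak of lncRNA:CR43626 (FBgn0263617) had rank 125 and ranks of 117, 113 and 159 in the replicates. It lay at 3248923 on 3L, 417 bp upstream of this host of mir-282, and within an untranslated exon of CG43389 on the same strand. The host RNA had another optimal peak, at rank 5813.

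Among the other peaks of the 20 strongest, that of lncRNA:CR45668 (rank 199) lay 206 bp upstream of the RNA and 666 bp from a start of Act5C, a cytoplasmic actin gene. lncRNA:CR42657 (rank 560) lay 672 bp from nej, the CBP histone acetyltransferase gene, and asRNA:CR44429 (rank 562) lay 522 bp from gce, which encodes a juvenile hormone receptor. These summits lie just outside the limit of 500 bp that separates them from a protein-coding start. Others were far from one. lncRNA:CR43717 (rank 455) had its summit 10 bp upstream of its TSS in an intron of ex, a gene of the Hippo pathway, 8302 bp from the nearest start of ex. lncRNA:CR44478 (rank 569) lay in an intron of Socs36E, an inhibitor of JAK/STAT signalling, 6940 bp from the nearest protein-coding start.

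Of the remaining 10, lncRNA:CR34052 (rank 529) lay in an intron of Raf, a kinase gene of the MAP kinase cascade, asRNA:CR46145 (rank 471) in FER, a tyrosine kinase gene, and asRNA:CR45908 (rank 482) in CG1943, all on the strand opposite to the coding gene. lncRNA:CR44868 (rank 484) and lncRNA:CR44867 (rank 594) both lay in an intron of beat-Ib, an axon guidance family gene. lncRNA:CR45997 (rank 399) lay in mbl, a splicing factor gene, and mir-9377 (rank 405) in Tis11, whose product speeds decay of AU-rich messenger RNAs. Between genes lay lncRNA:CR44276 (rank 258), nearest to the septin gene pnut, lncRNA:CR45595 (rank 424), nearest to l(3)neo38, and lncRNA:CR44339 (rank 599), nearest to the Polycomb group gene Psc. All 20 were found among the strongest of all 3 replicates, with ranks between 13 and 761. Of all optimal peaks, 71.8% were. The 20 were picked by signal in a list called on these replicates pooled, so their high replicate ranks are a description only.

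**Figure D3:**
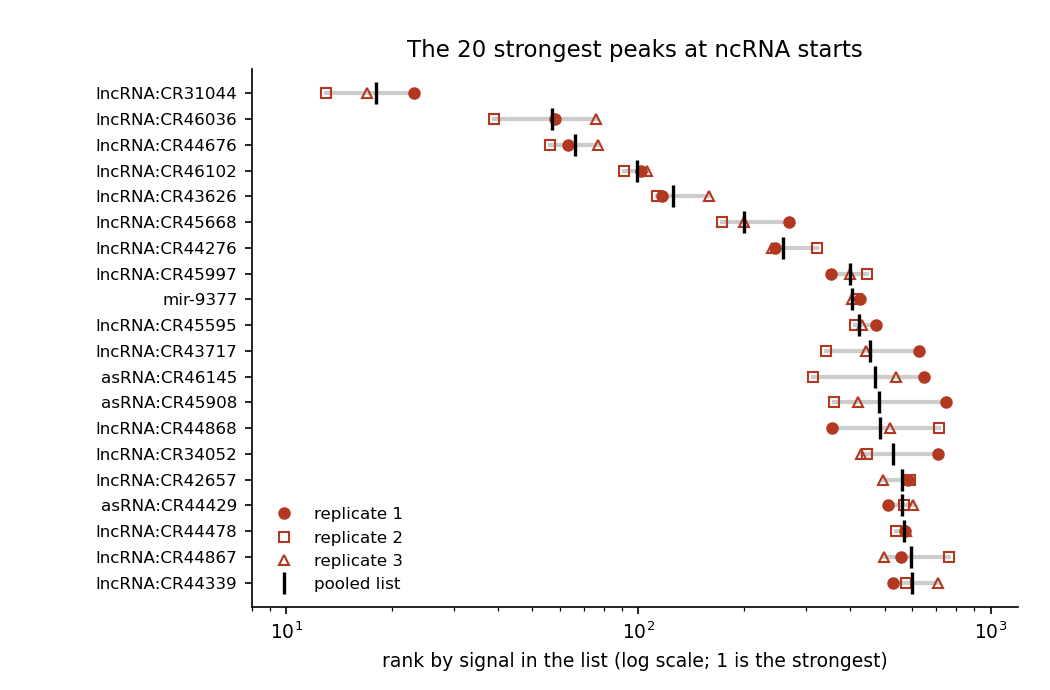
Rank by signal (log scale, 1 is the strongest) of the 20 strongest peaks at ncRNA starts in replicates 1, 2 and 3 and in the pooled list, labelled by their RNA gene. The peak of lncRNA:CR31044 stays between ranks 13 and 23, while asRNA:CR46145 and asRNA:CR45908 spread from 313 to 646 and from 359 to 748.

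Within 250 bp of the RNA starts, summits of the optimal peaks lay mostly upstream, and farther out they did not. Over all 726 peaks, the median position was -28.5 bp and 388 (53.4%, 49.8 to 57.0) lay upstream. Among the 200 in the optimal set the median was -89.5 bp and 123 (61.5%, 54.6 to 68.0) lay upstream, against 265 (50.4%) and a median of -5 bp among the 526 others. Counted 50 to 250 bp from the start, 69 optimal summits lay on the upstream side and 17 on the downstream side. Farther out, up to 500 bp, the counts were 43 upstream and 51 downstream. The division at 250 bp was chosen after the values had been seen. Outside the optimal set the counts in the inner window were 123 and 113. Each replicate showed the same lean in the inner window of its strongest set, with 62, 67 and 69 summits upstream and 22, 21 and 18 downstream in replicates 1, 2 and 3. In the outer window these were 50, 43 and 43 upstream and 46, 46 and 43 downstream.

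The lean was present at protein-coding starts too, and steeper there. Optimal peaks at protein-coding starts had a median position of -108 bp, with 1812 summits 50 to 250 bp upstream and 248 downstream. In the replicates, 62.3%, 60.8% and 63.4% of the strongest peaks at ncRNA starts lay upstream, against 84.2%, 74.9% and 82.9% at protein-coding starts. The difference averaged -18.5 percentage points (SD 4.02), with the same direction in 3 of 3 replicates (exact sign-flip permutation test, p = 0.25, the smallest possible). Strength did not follow closeness to the RNA start. In the optimal set were 60 of the 258 peaks within 150 bp (23.3%, 18.5 to 28.8), 65 of the 218 up to 300 bp (29.8%, 24.1 to 36.2) and 75 of the 250 up to 500 bp (30.0%, 24.7 to 35.9).

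**Figure D4:**
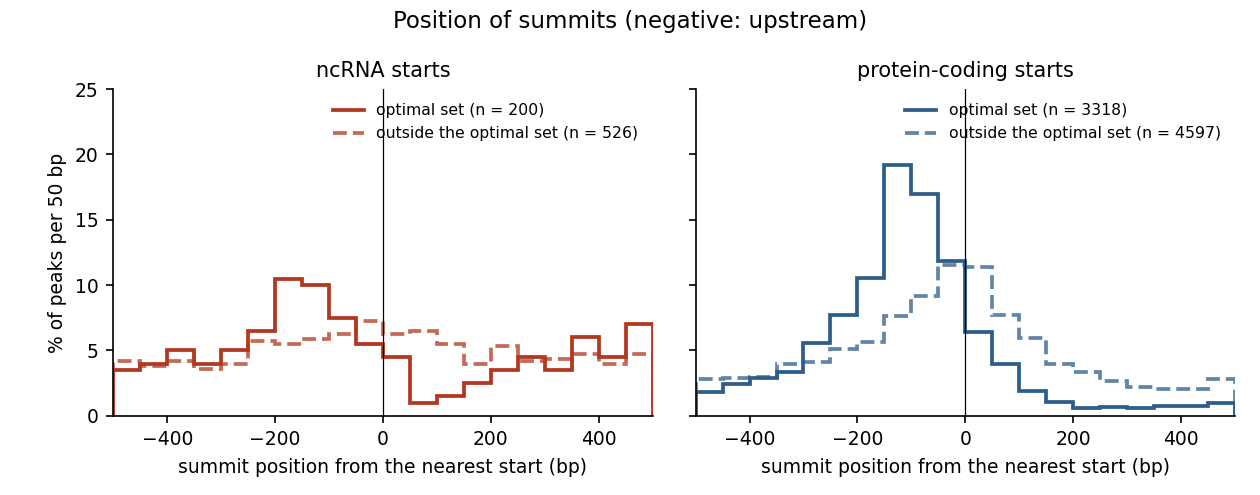
Share of summits per 50 bp (%) by position from the nearest start in bp, negative being upstream, for peaks at ncRNA starts (left) and at protein-coding starts (right), with solid lines for the optimal set and dashed lines for the rest. The 200 optimal peaks at ncRNA starts are most frequent 100 to 200 bp upstream and least frequent 50 to 150 bp downstream, while the share of the rest per 50 bp runs from 3.61% to 7.22% and is highest just upstream of the start.

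At the limit of the rule, the 2 members nearest to 500 bp were at lncRNA:CR45148 (-500 bp, rank 4364) and lncRNA:CR44749 (499 bp, rank 2895). The nearest peaks outside it were at lncRNA:CR45590 (501 bp, rank 13972) and lncRNA:CR45352 (502 bp, rank 6440). On the side of the protein-coding limit, the nearest members were at mir-9370, 506 bp from FucT6, and asRNA:CR44134, 507 bp from Lipt2. Both were outside the optimal set, at ranks 8338 and 19020.

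About 1 in 3 of the peaks lay within a protein-coding gene. Between protein-coding genes lay 490 (67.5%), in introns 197, in untranslated exons 26 and in coding sequence 13. The share within a protein-coding gene was 32.5% (29.2 to 36.0), against 64.6% of all pooled peaks, 57.3% at protein-coding starts and 68.4% elsewhere. The rule ties these peaks to annotated ncRNA starts, and the share of all such starts within protein-coding genes was not computed. By class, the share within a protein-coding gene was 24.4% at lncRNA genes and 70.0% at antisense RNA genes. The RNA ran opposite to the covering gene in 143 cases, along it in 89 and both in 4. Of those on the opposite strand 40 (28%, 21.3 to 35.8) were in the optimal set, and of those on the same strand 18 (20.2%, 13.2 to 29.7), a difference within the intervals. The genes HmgD, RhoGAP92B, bun, osa and vri covered 3 such peaks each. The nearest protein-coding gene had an optimal peak at a start of its own for 281 of the 726 (38.7%, 35.2 to 42.3), against 40.8% of the peaks elsewhere.

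The X chromosome held a smaller share of these peaks than of the others, and about the same share as of ncRNA genes. On X lay 96 of the 726 (13.2%, 11 to 15.9), against 19.4% of all pooled peaks and 19.5% of peaks at protein-coding starts. In the replicates the share was 11.1%, 13.6% and 12.7% at ncRNA starts, against 17.7%, 19.5% and 19.0% at protein-coding starts, a mean difference of -6.27 percentage points (SD 0.351) with the same sign in 3 of 3 (exact sign-flip permutation test, p = 0.25). In the annotation, 13.5% of ncRNA genes lie on X, and 12.6% of those with a start over 1000 bp from every protein-coding start. The share of peaks at ncRNA starts was thus close to that of the genes. For protein-coding genes the share on X is 15.7%, below the 19.5% of peaks at their starts. The other arms held 201 (3L), 161 (2L), 149 (3R), 118 (2R) and 1 (4).

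Counted by gene, 616 of the 2780 ncRNA genes on the 6 arms (22.2%, 20.7 to 23.7) had such a peak, and 202 (7.27%, 6.36 to 8.29) had one in the optimal set. For protein-coding genes, which often have several starts, the shares were 47.8% and 28.7% of 13945. Since the rule leaves out RNA starts close to protein-coding starts, the RNA share is also given for genes with a start more than 1000 bp from every protein-coding start, where it was 513 of 1963 (26.1%), and 176 (8.97%) in the optimal set. By class, 25.6% of 1951 lncRNA genes, 13.1% of 503 antisense RNA genes and 15.0% of 260 miRNA genes had a peak. Most genes had 1 peak (478), 123 had 2, 14 had 3 and asRNA:CR43481 had 4. Of the 726 peaks, 276 lay within 1000 bp of another of them and 155 within 300 bp, so neighbouring peaks are not independent sites. The Wilson intervals over peaks treat each peak as independent and can be too narrow for this reason. Among the lncRNA and antisense RNA genes alone, those with several annotated starts had an optimal peak in 18 of 128 cases (14.1%, 9.08 to 21.1), against 173 of 2326 (7.44%, 6.44 to 8.58) with 1 start. A gene with more starts has more places where a peak counts, and shares per start were not computed. Median length of the lncRNA and antisense RNA genes was 688 bp with an optimal peak and 722 bp with no peak.

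Precursor RNAs of miRNAs carried a peak more often than other long RNAs. Of the 37 lncRNA or antisense RNA genes that hold a miRNA on their own strand, 20 (54.1%, 38.4 to 69.0) had a peak and 10 (27.0%, 15.4 to 43.0) an optimal one. Of the 2407 that hold neither a miRNA nor a snoRNA, 544 (22.6%, 21.0 to 24.3) and 180 (7.48%, 6.49 to 8.60) did. The grouping was made after the strongest peaks had been seen, so it is a description. The hosts were longer, with a median of 6436 bp against 710 bp, and 14 of 37 had several annotated starts, against 113 of 2407. Among genes with 1 start, 10 of 23 hosts (43.5%, 25.6 to 63.2) had a peak and 5 (21.7%, 9.66 to 41.9) an optimal one, against 513 (22.4%) and 167 (7.28%) of 2294 that host neither. The 2407 include antisense RNA genes, a class in which 13.1% had a peak, and genes near protein-coding starts, whose peaks the rule can leave out. Of lncRNA genes with a start over 1000 bp from every protein-coding start, hosts included, 28.9% had a peak and 10.5% an optimal one. The parts of gene length, RNA class and nearness to protein-coding starts were not tested. Besides lncRNA:CR31044 and lncRNA:CR43626, the optimal hosts were lncRNA:Hsromega, lncRNA:CR43857 (mir-275, rank 874), lncRNA:CR43650 (mir-8, rank 999), asRNA:CR46194 (mir-281-1 and mir-281-2, rank 1500), lncRNA:let7C, lncRNA:CR43651 (mir-14, rank 5287), lncRNA:CR43314 (mir-bft, rank 6076) and lncRNA:CR46006 (mir-276a, rank 7497).

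Among the miRNAs of the optimal hosts, mir-8 and mir-14 are described here for known metabolic roles in flies. The roles of the others were not reviewed, and no metabolic theme was tested. mir-8 acts on insulin signalling and growth through the fat body, and its host peak ranked 858, 1043 and 1186 in replicates 1, 2 and 3, with the summit 157 bp upstream of the start. mir-14 is required for normal fat metabolism, and its host peak, 45 bp downstream of the start, ranked 7905, 3956 and 6871. The mir-8 host was therefore strong in each replicate and the mir-14 host was near the edge of the strongest set in 1 of them. Peaks outside the optimal set lay at the hosts of mir-ban, the growth regulator bantam (rank 8178), of mir-1, a muscle miRNA (rank 12505), and of mir-124, a neural miRNA (rank 21129). Of 10 snoRNA hosts, Uhg4 had an optimal peak 98 bp upstream of its start (rank 889, replicate ranks of 1001, 920 and 812) and Uhg3 a peak 22 bp upstream at rank 10876. Uhg2, Uhg5 and Uhg8 had pooled peaks at ranks 4115, 5314 and 1596 that also lay near a protein-coding start, and Uhg1 and Uhg7 had none at a start.

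Long RNAs with known functions ranged from strong peaks to none. lncRNA:Hsromega, a heat shock-induced RNA of nuclear speckles, had a peak 211 bp downstream of its start at rank 645, and its replicate ranks were 698, 571 and 616. lncRNA:flam, a source of small RNAs that silence transposons in ovarian follicle cells, had one 189 bp upstream at rank 1900, with replicate ranks of 1849, 1910 and 1952. Both were steady across replicates. lncRNA:let7C, the precursor of mir-100, mir-let7 and mir-125 that rises with ecdysone at the end of larval life, had its optimal peak (rank 5209) at 493 bp downstream and another at -494 bp (rank 29182), both close to the limit of the rule. RNaseMRP:RNA, the RNA of a ribosomal RNA processing enzyme, had an optimal peak at rank 7310 that was matched in replicates 1 and 2 and not in replicate 3.

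The dosage compensation RNAs, which guide the complex that raises transcription of the male X, had no optimal peak. lncRNA:roX1 had its stronger peak 116 bp upstream at rank 9839, with replicate ranks of 13682, 8199 and 9797, and lncRNA:roX2 had one 172 bp downstream at rank 11474, with ranks of 10005, 13264 and 28454. The roX2 peak was thus near the bottom of the list in replicate 3. Also outside the optimal set were lncRNA:yar (rank 8742), lncRNA:Vinr (rank 10102), lncRNA:acal (rank 16783) and lncRNA:noe (rank 20725). lncRNA:TS2 had an optimal peak 1 bp upstream of its start at rank 4477, while lncRNA:TS16 (rank 21162) and lncRNA:TS27 (rank 26865) had weak ones. No pooled peak lay at a start of lncRNA:iab8, lncRNA:bxd, RNaseP:RNA, either listed 7SLRNA gene, lncRNA:sphinx, lncRNA:CRG, lncRNA:cherub or lncRNA:marge.

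Among the smaller RNAs named by symbol, sisRNA:4, a stable intronic RNA of the neural gene dpn, had the strongest peak after mir-9377 and the mir-275 hairpin (rank 873). It lay at rank 1635, with replicate ranks of 1777, 1316 and 1890. mir-92b (rank 3644), mir-2491 (rank 4830), snoRNA:Or-ACA9 (rank 5160), mir-34 (rank 5765), mir-4968 (rank 6148) and mir-282 (rank 7515) also had optimal peaks, as did mir-279 (rank 7491) in the locus described above. The mir-34 peak was matched in replicates 2 and 3 only. The other miRNA entries, sncRNA:204, sncRNA:400, sncRNA:838, sbRNA:1, snoRNA:Me28S-C993, asRNA:Eig63F-2 and asRNA:bsAS had peaks outside the optimal set.

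The E-box that basic helix-loop-helix factors can bind was not frequent at these summits. Within 50 bp of the summit, CACGTG was present in 7 of the 726 peaks (0.964%, 0.468 to 1.98), as often as in the windows 300 bp away (7 of 726) and against 1.06% of all pooled peaks. None of the 200 optimal peaks held it, which allows a share of up to 1.88%, and 0.576% of all optimal peaks did. The strongest with it were at mir-4962 (rank 8671) and Uhg3 (rank 10876). The looser E-box CANNTG, which includes CACGTG, was present in 275 (37.9%, 34.4 to 41.5), against 38.7% of all pooled peaks. Among the optimal peaks at ncRNA starts it was present in 55 of 200 (27.5%, 21.8 to 34.1) at the summit and in 95 of 200 (47.5%, 40.7 to 54.4) in the flank. At protein-coding starts the optimal shares were 31.2% at the summit and 39.1% in the flank, and elsewhere 32.4% and 41.8%. Over all optimal peaks they were 31.8% and 40.8%. The sterol element TCACNCCAC was found once, in the lncRNA:CR44720 peak shown above (rank 14372), against 0.2% of all pooled peaks.

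Between summit and flank of the optimal peaks, GATA and forkhead sequences ran the other way, as they did over all optimal peaks. The GATA factor motif was present at 102 of the 726 summits (14%, 11.7 to 16.8), against 14% of all pooled peaks. Among the optimal peaks at ncRNA starts it stood at 38 of 200 summits (19%, 14.2 to 25) and in 21 of 200 flanks (10.5%, 6.97 to 15.5). Optimal peaks elsewhere had 18.3% and 10.5%, and all optimal peaks 17.1% and 10.9%. The forkhead motif was present at 47 summits (6.47%, 4.90 to 8.50), against 6.11% of all pooled peaks. Among the optimal peaks at ncRNA starts it stood at 19 of 200 summits (9.5%, 6.17 to 14.4) and in 6 of 200 flanks (3.00%, 1.38 to 6.39). Optimal peaks elsewhere held the forkhead motif in 6.95% and 3.8%, and all optimal peaks in 7.22% and 4.67%. The asRNA:CR46145 window above holds forkhead letters at both of its marked places, and the lncRNA:CR46036 window holds the GATA letters in reverse.

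Base composition moved with these counts. The median G+C content of the 101 bp window was 30.7% at the 200 optimal summits and 46.5% in their flanks, and 43.6% at the 526 other summits and in their flanks. Optimal summits elsewhere had 30.7% and those at protein-coding starts 31.7%, so a low G+C content was shared by strong peaks of every location. GATA and forkhead letters are rich in A and T, and every CANNTG match holds a C and a G. The part of base composition in the shares of these motifs, the E-box included, was not tested. Among promoter motifs of protein-coding genes, DRE (TATCGATA) was present at 1 summit (0.138%, 0.0243 to 0.776), against 2.74% of peaks at protein-coding starts, 0.173% elsewhere and 0.85% of all pooled peaks. The M1BP site GGTCACACT was present at none, against 1.29%, 0.117% and 0.423%. A count of 0 here allows up to 0.526%. For both motifs the interval at ncRNA starts holds the share elsewhere and lies below that at protein-coding starts. The short initiator-like run TCAGT was present at 16.8% (14.3 to 19.7), against 18.9% at protein-coding starts and 17.2% of all pooled peaks. GAGAGAG stood in 1.79% of the 726 and 1.7% of all pooled peaks. In all, 13 motifs were searched. A match is a run of letters and does not show that a factor was bound.

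**Figure D5:**
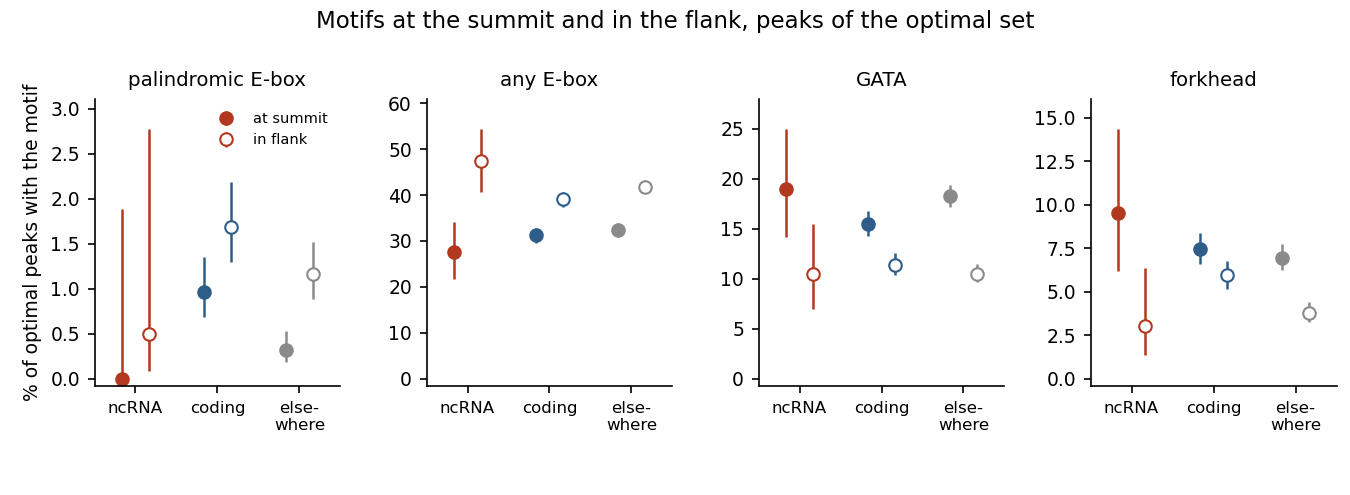
Share of optimal peaks (%) that hold each motif within 50 bp of the summit (filled) and in an equal window 300 bp away (open), with 95% Wilson intervals, for peaks at ncRNA starts, at protein-coding starts and elsewhere; each panel has its own scale. At ncRNA starts CANNTG is lower at the summit than in the flank, at 27.5% and 47.5%, and GATA and forkhead are higher at the summit, as they are in the other locations.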

How the data were processed

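The data were SREBP ChIP-seq peak lists of 3 biological replicates, which the labels put in 1 group and number. Per the deposited notes, the authors' lists are on dm6, a list was called for each replicate and for the pooled alignments, each from the alignments and 1 further file, and the optimal set was derived from these lists by IDR. Not given in the sources used here were the peak caller, aligner, IDR threshold and nature of that file. The deposited signal value served only to rank peaks within a list, and the deposited -log10 q-value was not used, because nearly all optimal peaks share its highest value. Depth per sample is unknown, because the lists give no read counts.

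Gene models came from Ensembl release 115 (BDGP6), and sequence from the RefSeq genome of release 6, whose arms are longer than the last peak and the last gene on each. Analysis was limited to X, 2L, 2R, 3L, 3R and 4, and coordinates are counted from 1. Mature miRNA sequences were read at the annotated coordinates, with U for T. Position is that from the nearest ncRNA TSS on its strand. Summits of different lists were matched within 150 bp, to the strongest in reach. In replicates 1, 2 and 3, 26, 18 and 10 of the matched peaks shared a replicate peak with another. Motifs were searched on both strands in 101 bp around the summit and in an equal window 300 bp to the right on the plus strand. The functions were tested on simulated summits, matches and motifs and recovered all of them. Python 3.11.15, pandas 2.3.3 and scipy 1.17.1 were used.

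Named genes are those of the 20 strongest peaks, those with a symbol other than a CR or CG number, a list of known long RNAs, and the peaks nearest to the limit. The members and lists were chosen with earlier results of these data known. The host RNA groups, the gene structure, the sides of the start, the base composition, the neighbouring genes and the rule applied to each replicate's list were added after the values had been seen. From the list of known RNAs, msa, bft, IBIN and 7SK were not matched by symbol. The other settings tried, 60 and 1 chosen after seeing the data, gave the 88 values counted in the closing section.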

Additional observations from a re-analysis of the deposited data

How the results depend on the processing

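Of 88 values computed under other settings, 58 stayed within the interval of the reported value, or within 1.5 times of a count. The share on X (12% to 14%) and the median rank (14593 to 15301) did so under every setting tried for them. Limits of 250 and 1000 bp gave 413 and 1359 peaks and 390 and 946 genes, and 1000 bp moved the median position to 9 bp. With the stronger 1 in 2 optimal peaks in place of the whole set, the share was 12.9%. Starts over 1000 bp from protein-coding starts gave 28.9% within a protein-coding gene. The share found in all 3 replicates was 22.7% with summits matched within 50 bp, 52.3% within 250 bp, 20.2% in the strongest set of each replicate, and 49.6% to 54.7% when 1 replicate was left out and both others had to match. Optimal peaks alone gave a median position of -89.5 bp, 202 genes, and shares of 0% (CACGTG), 27.5% (CANNTG), 19% (GATA) and 9.5% (forkhead). Windows of 100 bp on each side gave 2.20%, 62.7%, 23.8% and 12.8%, and windows of 25 bp gave 0.275%, 20.5%, 8.13% and 1.93%, since a longer window holds more letters. Windows 300 bp to the right of the summit on the plus strand, whatever the strand of the RNA, gave 0.964%, 42.8%, 11.6% and 4.55%. The count of genes with a start over 1000 bp from every protein-coding start was chosen after seeing the data. No paired analysis was possible because there was 1 group of larvae; differences between sets of peaks were taken within each replicate. With no read counts, weak peaks cannot be told from unequal depth, and peaks below the end of each list of 30000 were not seen.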
